A study of Mus musculus with 9 samples.

Results

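Messenger RNA was compared between ST2 cells given recombinant human Wnt3a (rhWnt3a, 50 ng/ml) together with OSMI (20 µM), a small-molecule inhibitor of O-GlcNAc transferase (OGT), and ST2 cells given the same dose of rhWnt3a without OSMI. All cells were kept for 72 h. ST2 is a mouse bone marrow stromal line, which the labels describe as mesenchymal stem cells of WT genotype. Each group was represented by 3 libraries, so that 6 of the 9 libraries of the series entered the contrast. The other 3, from vehicle-treated cells, shared the estimate of the spread, and their levels are given beside the results. Every gene of the deposited table was a member of the comparison: it held 54532 genes, of which 14004 had enough reads to be tested. By the titles, from which the groups were taken, no group received OSMI without rhWnt3a, so an effect of OSMI that needs Wnt signaling and one that does not cannot be told apart. The labels do not say whether replicates were separate cultures. The study's legend for its heatmap of glycolytic genes gives 3 biological replicates, without saying how they were prepared. P-values measure only the spread between these libraries, part of which may be technical.

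O-GlcNAcylation is the attachment of single N-acetylglucosamine sugars to serine and threonine residues of nuclear and cytoplasmic proteins. OGT adds the sugar from UDP-GlcNAc, the end product of the hexosamine pathway, and O-GlcNAcase (OGA) removes it. Wnt3a acts through Frizzled receptors and β-catenin and drives stromal cells towards the osteoblast, a cell that secretes and mineralizes a collagen-rich matrix. The question behind the contrast was which transcripts of rhWnt3a-treated cells depend on O-GlcNAcylation.

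Depth was even across the series, at 16135898 to 17583945 counted reads per library, where 3 counts correspond to 0.17 to 0.191 CPM, a level scaled to library size. Levels written as 2 values joined by a dash are the lowest and highest of the 3 libraries of a group, and values in brackets after a level are log2 fold changes of rhWnt3a with OSMI over rhWnt3a, with their standard error (SE) where given. One library of each group stood apart from its 2 partners: mean squared log2 differences between libraries were 0.373 and 0.411 for rhWnt3a replicate 2 and 0.437 and 0.442 for OSMI replicate 3, against 0.111 and 0.119 for the remaining pairs of those groups. Vehicle replicate 3 likewise differed by 0.454 and 0.392 from its partners, which differed by 0.117. Results that rest on rhWnt3a replicate 2 and OSMI replicate 3 are given with and without them. The titles name the third group as rhWnt3a with OSMI, as do the study's results, whereas its treatment label names OSMI alone, as do the study's methods. Tnfrsf19, a target of canonical Wnt signaling, was at 0.0566–0.183 CPM with vehicle, at 5.15–5.96 with rhWnt3a and at 0.746–1.75 in the libraries labelled rhWnt3aOSMI, above every vehicle library in all 3 of them. Of 13 stromal markers, none was at 0 throughout, although Thy1 and Lepr had only 9 and 18 counts over the 9 libraries. Of the 11 tested, 4 (Dcn, Col3a1, Nt5e and Vim) fell with OSMI by the rule given below (36.4%, against 3.05% of all tested genes). The calls of Col3a1 and Vim held in only 4 and 2 of 9 fits that each left out 1 library. The summed level of the list was 22640 to 29340 CPM with vehicle, 18260 to 21070 with rhWnt3a and 9147 to 17480 with OSMI. Col1a2 and Col1a1 gave most of this sum, with 1178849 and 1055647 counts over the 9 libraries, and Col1a1 overlapped between the OSMI and rhWnt3a groups. Hematopoietic markers summed to at most 11.3 CPM, endothelial markers to at most 4.4 and epithelial markers to at most 0.305, in any library, with Ptprc at 5, Cdh5 at 1 and Epcam at 1 count over the 9 libraries. The part of these markers in the results was not tested. Because RNA was taken in bulk, fewer cells of a type and less RNA per cell cannot be told apart.

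More genes fell than rose with OSMI, and more of the falls were large. A gene was called when edgeR's quasi-likelihood test gave a Benjamini-Hochberg adjusted p under 0.05 and the log2 fold change was beyond 0.5 in size. By this rule 664 genes, or 4.74% of those tested, differed between rhWnt3a with OSMI and rhWnt3a: 237 (1.69%) rose and 427 (3.05%) fell. Beyond a log2 fold change of 1 there were 101 rises and 279 falls, and beyond 2 there were 18 and 77. The median log2 fold change of all tested genes was −0.01. In all 664 the 3 OSMI libraries lay entirely above or below the 3 rhWnt3a libraries, as they did for 16.7% (higher) and 17.0% (lower) of tested genes. Called genes were mostly protein coding (617), and 23 were pseudogenes. Leaving out rhWnt3a replicates 1, 2 or 3 left 277, 280 and 217 called genes, leaving out OSMI replicates 1, 2 or 3 left 240, 203 and 663, and leaving out vehicle replicates 1, 2 or 3 left 463, 370 and 764, with no called gene changing direction. Of the 130 called genes chosen for naming, 57 kept their call with each of the 9 libraries left out in turn. Of all 664 called genes 163 did so. The named genes kept 103, 95 and 129 of 130 calls without vehicle replicates 1, 2 and 3, 77, 78 and 65 without the rhWnt3a replicates, and 68, 62 and 111 without the OSMI replicates. Where a named gene lost its call, the number of omissions out of 9 in which it held is given, followed after "up to" by the highest adjusted p reached.

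**Figure D1:**
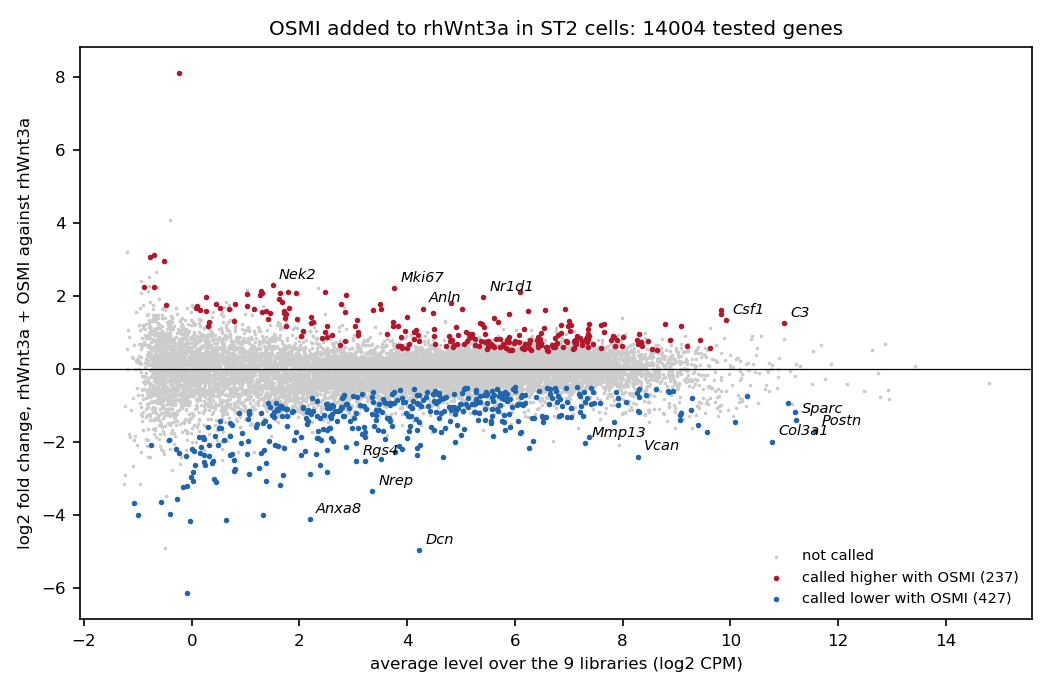
Average level over the 9 libraries (x axis, log2 CPM) against the log2 fold change of rhWnt3a with OSMI over rhWnt3a (y axis) for the 14004 tested genes, with the 237 called rises in red and the 427 called falls in blue. Among genes averaging over 1 on the x axis, called changes run from −4.98 for Dcn to 2.30 for Nek2, and the called genes with the most reads (Postn, Sparc, C3) lie at the right.

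Decorin (Dcn, ENSMUSG00000019929, chr10:97479609-97518143 in GRCm38), a small proteoglycan that binds collagen fibrils and growth factors, had the largest fall among genes averaging over 1 on the log2 CPM scale. Its level was 40.5, 48.4 and 42.8 CPM in the 3 rhWnt3a libraries and 1.27, 1.55 and 1.34 CPM in the 3 OSMI libraries. Both groups were tight and far apart, and vehicle-treated cells lay between them at 7.96–11.5 CPM. The log2 fold change was −4.98, SE 0.21, with edgeR adjusted p = 5.93e-06. Nrep, a small neuronal protein also found in regenerating tissue, was at 19.8, 28 and 22 CPM with rhWnt3a and at 1.69, 2.24 and 2.91 with OSMI, against 4.24–5.68 with vehicle, a log2 fold change of −3.34, SE 0.24. The OSMI libraries were below every vehicle library for both genes.

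Other large falls covered secreted, membrane and signaling proteins. Rgs4, which shortens signaling by G protein-coupled receptors, was at 7.3, 7.39 and 7.84 CPM with rhWnt3a and 1.27, 1.09 and 1.52 with OSMI (log2 fold change −2.53, SE 0.19, adjusted p = 0.000435). Its groups did not overlap, and vehicle was higher than both at 13.9–17.1. Enpp3, an ectoenzyme that cleaves extracellular nucleotides, went from 10.7, 10.3 and 10.5 CPM with rhWnt3a to 1.09, 1.72 and 2.62 with OSMI (−2.53, SE 0.28). Car3, a cytosolic carbonic anhydrase, was at 5.84–9.55 CPM with rhWnt3a, at 0.408–1.15 with OSMI and at 0.509–1.04 with vehicle (−3.19, SE 0.38), so that the OSMI and vehicle levels overlapped. Des, the intermediate filament protein desmin, fell from 2.8–3.58 to 0.423–0.574 CPM (−2.71, SE 0.28). S100b, a calcium-binding protein, fell from 4.38–7.11 to 0.665–1.15 CPM (−2.65, SE 0.28). The adjusted p of these 4 genes lay between 0.00156 and 0.00267.

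Of the rest of the 15 largest falls, most ended near the detection limit, whereas Tnfsf15 did not. Anxa8, a calcium-dependent membrane-binding annexin, had 47, 48 and 67 counts with rhWnt3a and 3 counts in each OSMI library, a ratio of 18.1 with a 95% counting interval of 9.32 to 40.4 (edgeR adjusted p = 0.000435). Lrrc17, a secreted leucine-rich repeat protein of bone cells, was at 4.56, 4.89 and 4.19 CPM with rhWnt3a and 0.423, 0.172 and 0.233 with OSMI (−4.01, SE 0.35). Calml4, a calmodulin-like protein, fell from 1.46–2.22 to 0.181–0.402 CPM (−2.58, SE 0.35). Ptgds, a prostaglandin D synthase, was already lower with rhWnt3a (0.548–1.19 CPM) than with vehicle (13.9–17.3), and had 1, 1 and 4 counts with OSMI against 9, 21 and 15, a ratio of 7.56 (95% counting interval 3.21 to 21.7, call held in 5 of 9 omissions, up to 0.0719). Tnfsf15, a cytokine of the TNF family, was at 0–0.366 CPM with vehicle, 6.65–15.1 with rhWnt3a and 1.09–2.51 with OSMI (−2.87, SE 0.54, 5 of 9, up to 0.0856). Aspn, a relative of decorin, had 16, 21 and 18 counts against 3, 3 and 1, a ratio of 7.92 (95% counting interval 3.6 to 20.6), and its call held in 3 of 9 omissions, up to 0.076. Ctla2a, a cysteine protease inhibitor, fell from 1.5–2.96 to 0.175–0.423 CPM (−2.87, 8 of 9, up to 0.0525). Cd200r4, an immune receptor, went from 2.56–3.41 to 0.0574–0.786 CPM (−3.08, 3 of 9, up to 0.107), which completes the 15 largest falls. Near-identical sequence in 2 other genes covered 32.4% of the Ctla2a transcript, which makes its reads uncertain. Counting intervals cover counting error only.

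Of the 15 largest rises 10 were cell-division genes and others had separate roles. Nr1d1, which encodes the circadian repressor REV-ERBα, was at 22.4, 16.3 and 25.8 CPM with rhWnt3a and 90.2, 90.3 and 73 with OSMI, against 18–23.3 with vehicle (1.97, SE 0.19, adjusted p = 0.00149). The OSMI libraries lay above both other groups, which overlapped. The opposite-strand gene that shares 8.5% of its exon bases cannot be told apart without strand. Smpd3, a neutral sphingomyelinase needed for bone mineralization, rose from 0.739–1.7 to 3.62–4.25 CPM (1.83, SE 0.34, 5 of 9, up to 0.0792). Vnn1, a pantetheinase, rose from 1.82–3.77 to 5.65–18.7 CPM (2.02, SE 0.50, 2 of 9, up to 0.143), and Iqgap3, a cytoskeletal scaffold, from 0.398–1.64 to 4.13–4.9 (2.1, SE 0.45, 3 of 9, up to 0.0976).

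**Figure D2:**
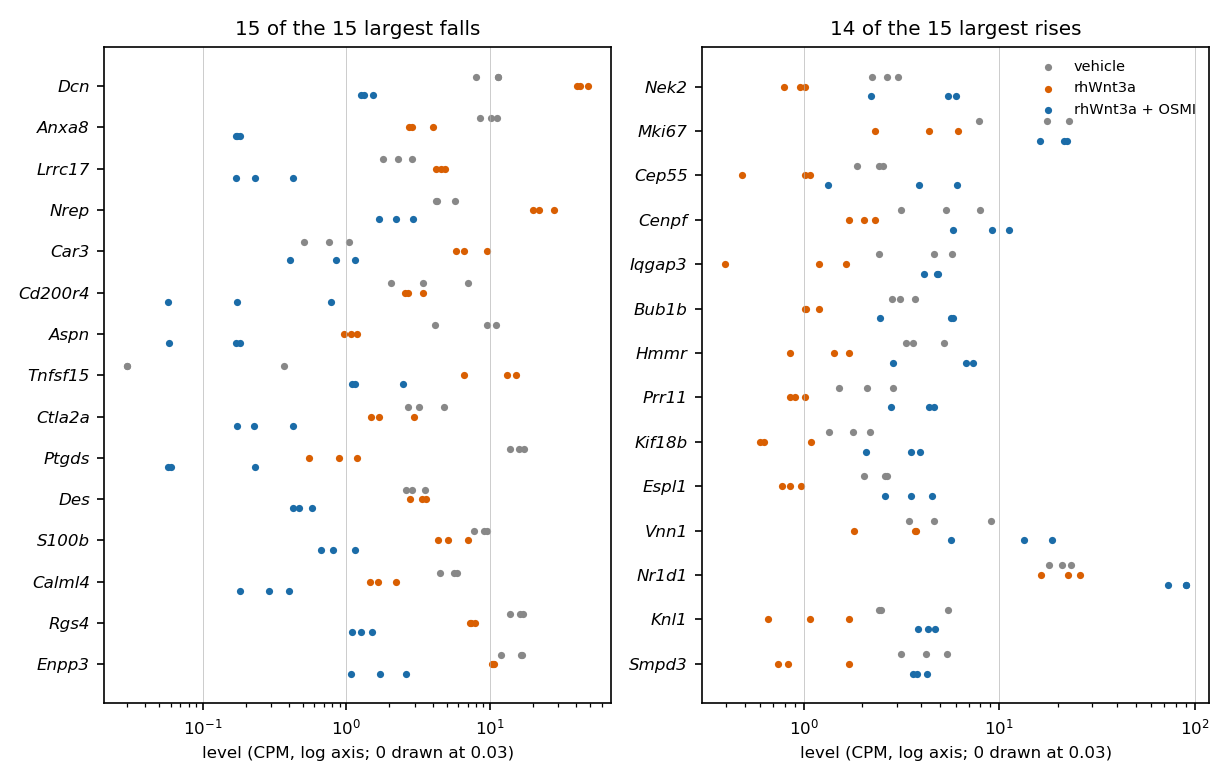
Level in each library (CPM, log axis) of the 15 largest falls (left) and 14 of the 15 largest rises (right) among called genes averaging over 1 on the log2 CPM scale, with vehicle in grey, rhWnt3a in orange and rhWnt3a with OSMI in blue. OSMI and rhWnt3a points do not overlap for any of the 29 genes, and among the falls the OSMI points are also below all vehicle points, except for Tnfsf15 and Car3.

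Genes of the O-GlcNAc cycle itself did not pass the test. Of 12 listed genes 11 were tested, 0 were called, and their median log2 fold change was −0.30. At an unadjusted p under 0.05 and by DESeq2, 1 member each was called, higher with OSMI. Ogt, whose enzyme OSMI inhibits, was at 677, 515 and 619.5 CPM with rhWnt3a and 625, 667 and 763 with OSMI, groups that overlapped (0.18, SE 0.17, adjusted p = 0.544). Since the drug acts on the enzyme, this messenger level is no check of inhibition. Mgea5, the gene of OGA, was at 178, 175 and 173 CPM with rhWnt3a and 261, 244 and 270.4 with OSMI. These groups did not overlap, and the log2 fold change was 0.56, SE 0.15, with adjusted p = 0.0661, which missed the threshold. Gfpt1, the entry enzyme of the hexosamine pathway, was at 128–179 CPM with rhWnt3a and 119–134 with OSMI (−0.35, SE 0.18, adjusted p = 0.276). Gfpt2 had too few reads to be tested.

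Transcripts of the secreted matrix were lower with OSMI across several families. Of 12 small leucine-rich proteoglycans, which bind collagen and growth factors, 5 fell (41.7%, against 3.05% of all tested genes) and 0 rose. Among 29 matrix glycoproteins 8 fell and 1 rose, among 30 proteases and their inhibitors 9 fell and 1 rose, among 22 collagen-processing enzymes 5 fell, and among 21 collagens 3 fell. Median log2 fold changes were −1.22, −0.72, −0.87, −0.41 and −0.52 in that order, against −0.01 for all genes. Leaving out rhWnt3a replicate 2 and OSMI replicate 3 together gave medians of −1.4, −1.0, −0.99, −0.52 and −0.87. Of the glycoproteins 5 kept a lower call without OSMI replicates 1 or 2. Of the processing enzymes 2 kept it without rhWnt3a replicate 3 or OSMI replicate 2 and 3 without rhWnt3a or OSMI replicate 1, whereas 9 were called without OSMI replicate 3.

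Biglycan (Bgn), the proteoglycan with the most reads, was at 1869, 1614 and 1818 CPM with rhWnt3a and 811, 852 and 1082 with OSMI, and at 3177–4361 with vehicle (−0.95, SE 0.18, adjusted p = 0.02). The 3 groups followed each other without overlap, and the call held in 5 of 9 omissions, up to 0.104. The other called members of this family were Dcn, Aspn, Lum, with 13, 28 and 13 counts against 0, 4 and 0 (ratio 13.6, 95% counting interval 5.02 to 51.7, 2 of 9 omissions, up to 0.11), and Ogn (−0.78, 1 of 9, up to 0.149), of which Ogn was named after its value was seen. Leaving out rhWnt3a replicates 1, 2 or 3 left 1, 2 and 1 called proteoglycans, leaving out OSMI replicates 1 or 2 left 1 and 2, and leaving out vehicle replicates 1 or 2 left 3 each.

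Sparc, a collagen-binding glycoprotein abundant in bone, was at 2679, 2647 and 2769.7 CPM with rhWnt3a and 1024, 996 and 1059.8 with OSMI (−1.39, SE 0.15, adjusted p = 0.00182). Replicates differed little in either group, and vehicle was above both at 3024–3878. Versican (Vcan), a large chondroitin sulfate proteoglycan, was at 549, 308 and 533 CPM with rhWnt3a and 64.9, 69 and 129 with OSMI (−2.41, SE 0.31, adjusted p = 0.00377), with the library apart in each group nearest to the other group. Without those 2 libraries its log2 fold change was −3.01. Mfap5, a protein of elastic microfibrils, fell from 41.1–53.6 to 18.5–22.3 CPM (−1.18, SE 0.15). Postn, a matrix protein that binds integrins, fell from 2735–2982 to 599–1331 CPM (−1.72, SE 0.29), and its call was lost without OSMI replicate 1 or 2, with adjusted p up to 0.0667. Thbs1 was the member that rose, from 177–232 to 449.9–596 CPM (1.24, SE 0.22, 8 of 9, up to 0.0522), whereas its relative Thbs2 fell from 396–503 to 139–214 (−1.46, SE 0.20, adjusted p = 0.00497). Both thrombospondins were named after their values were seen.

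Matrix-degrading enzymes were among the falls. Collagenase 3 (Mmp13, chr9:7272514-7283331), which cleaves fibrillar collagen, was at 280.2, 328 and 295 CPM with rhWnt3a and 72.9, 62.8 and 85.1 with OSMI (−2.03, SE 0.20, adjusted p = 0.00149). Vehicle, at 82.3–131 CPM, overlapped the OSMI range. Stromelysin 1 (Mmp3) fell from 11.9–16.8 to 2.75–4.41 CPM (−2.13, SE 0.24), with vehicle at 2.8–3.96. The plasminogen activators fell too, Plau from 5.56–7.16 to 1.49–1.75 CPM (−1.95, SE 0.20) and Plat from 107–115 to 27.4–45.5 (−1.73, SE 0.19), with adjusted p of 0.00171 and 0.00182. Gelatinase A (Mmp2), with the most reads, fell from 1894–1946 to 667–1116 CPM (−1.18, SE 0.20, call held in 5 of 9 omissions, up to 0.0798), against 4056–4746 with vehicle. The count of 9 called falls became 13 without OSMI replicate 3, 17 without both libraries apart and 6 without rhWnt3a replicates 1 or 3 or OSMI replicates 1 or 2.

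Among collagens, type III (Col3a1) was at 2145, 2219 and 2189 CPM with rhWnt3a and 364, 317 and 965 with OSMI (−1.99, SE 0.37, adjusted p = 0.017). OSMI replicate 3 was above its partners but below every rhWnt3a library. The call held in 4 of 9 omissions, up to 0.0799, that of Col5a3 (−1.31) in 2 of 9, up to 0.128 and that of Col16a1 (−0.97) in 2 of 9, up to 0.146. Col1a1, the main bone collagen, was at 7654, 5798 and 7437 CPM with rhWnt3a and 3191, 2707 and 6281 with OSMI, which overlapped (−0.78, SE 0.32, adjusted p = 0.191). Without both libraries apart it was called lower (−1.35, adjusted p = 0.0102), and also after a correction for length and GC content (−1.0, adjusted p = 0.0104). Without OSMI replicate 3, 9 collagens were called lower, and without any one of the other 5 rhWnt3a and OSMI libraries 0 were. Leaving out vehicle replicates 1, 2 or 3 gave 1, 1 and 4.

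Among the collagen-processing enzymes, Pcolce, which enhances the trimming of procollagen, was at 708, 967 and 750.5 CPM with rhWnt3a and 288, 281 and 267 with OSMI (−1.54, SE 0.16, adjusted p = 0.00171). Plod2, a lysyl hydroxylase that prepares collagen for crosslinking, was at 148, 155 and 143 CPM with rhWnt3a and 62.3, 67.1 and 68.9 with OSMI (−1.17, SE 0.12, adjusted p = 0.00169), with vehicle at 207–244. The OSMI libraries lay below all others for both genes. Plod1 (−0.92, 5 of 9 omissions, up to 0.0904) and the prolyl hydroxylases P4ha2 (−0.81, 7 of 9, up to 0.0689) and P4ha1 (−0.71, 4 of 9, up to 0.0917, named after its value was seen) also fell.

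Enzymes that build glycosaminoglycan chains gave 5 falls among 38 tested (13.2%, against 3.05% of all tested genes) and 0 rises, with a median of −0.19. Hs3st1, which sulfates heparan sulfate, was at 16.1, 16.1 and 15 CPM with rhWnt3a, 5.87, 6.31 and 3.03 with OSMI and 1.77–3.11 with vehicle (−1.63, SE 0.28). Csgalnact1, which starts chondroitin chains, fell from 13.8–17 to 4.42–5.59 CPM (−1.56, SE 0.18, adjusted p = 0.00208). Has2, a hyaluronan synthase, had 18, 18 and 22 counts with rhWnt3a and 1, 3 and 2 with OSMI, a ratio of 9.74 (95% counting interval 4.21 to 27.6). Sulf2, a heparan sulfatase (−1.06, 3 of 9 omissions, up to 0.105), and Papss2, which makes the sulfate donor (−0.85, 3 of 9, up to 0.101, named after its value was seen), were the others. Without any one of the 3 rhWnt3a libraries, OSMI replicates 1 or 2 or vehicle replicate 2, 3 members of this list were called.

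**Figure D3:**
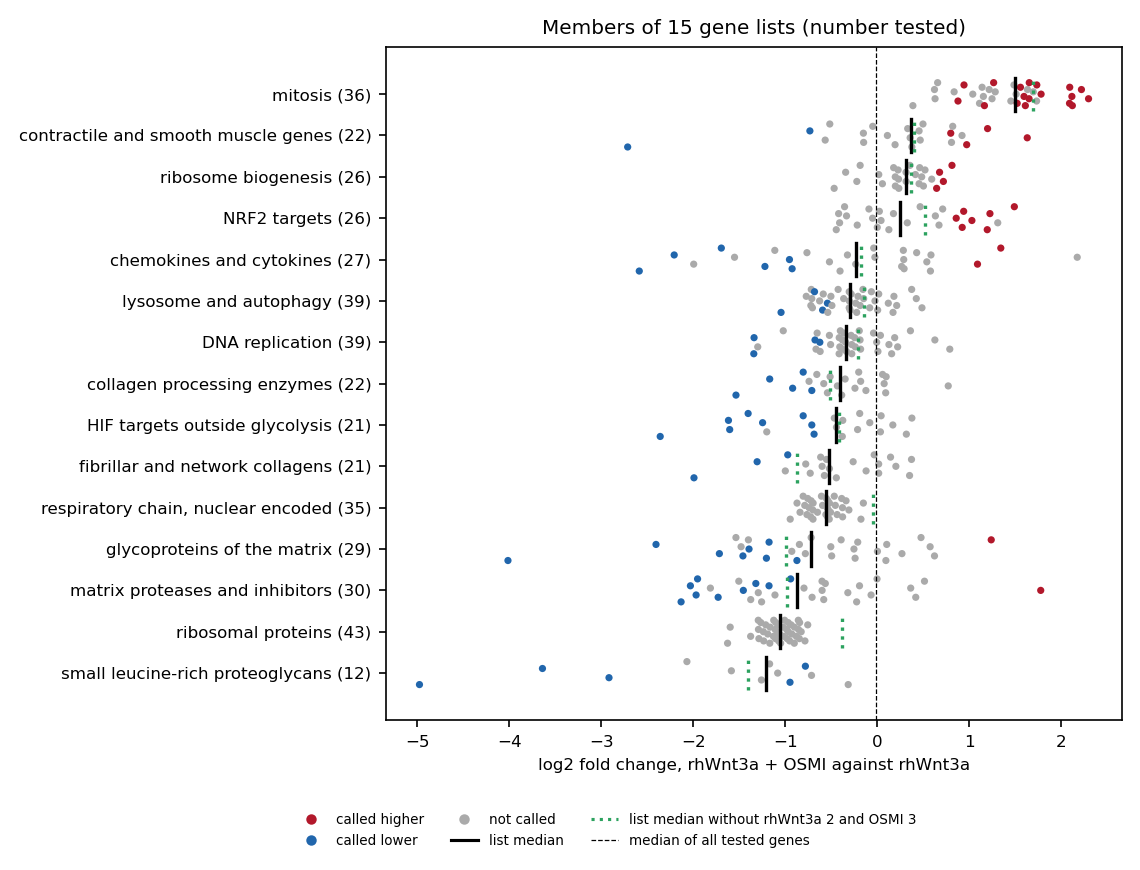
Log2 fold change of rhWnt3a with OSMI over rhWnt3a (x axis) for each tested member of 15 gene lists (y axis, number tested in brackets), with called rises in red, called falls in blue and the rest in grey. Solid bars are list medians, dotted green bars are medians without rhWnt3a replicate 2 and OSMI replicate 3, and the dashed line is the median of all genes. Mitosis genes lie right of 0 throughout, and the ribosomal protein and respiratory chain medians are the furthest moved of the 15 when the 2 libraries are left out.

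Targets of hypoxia-inducible factor (HIF), the transcription factor that adapts cells to low oxygen, gave 8 falls among 21 genes outside glycolysis (38.1%, against 3.05% of all tested genes) and 0 rises, with a median of −0.44, or −0.41 without the 2 libraries apart. In glycolysis 5 of 17 enzymes fell (29.4%) and 0 rose, with a median of −0.55. Without any one of the rhWnt3a libraries or OSMI replicates 1 or 2, 1 glycolytic enzyme was called, without vehicle replicates 1 or 2 there were 3, and without OSMI replicate 3 there were 4. Pdk1, which holds pyruvate out of mitochondrial oxidation, was at 48.2, 44 and 49.5 CPM with rhWnt3a, 19.5, 17.8 and 22.4 with OSMI and 20.2–22.9 with vehicle (−1.25, SE 0.13, adjusted p = 0.00171). Higd1a, a mitochondrial protein of the respiratory chain, was at 31.5, 47.4 and 29.9 CPM with rhWnt3a and 13.1, 14.1 and 8.57 with OSMI (−1.6, SE 0.26), below the vehicle range of 14.7–21.3 in all 3 OSMI libraries. Near-identical sequence covers 43.5% of its transcript. Bnip3, which marks mitochondria for removal, fell from 61.7–78.1 to 22.7–27.8 CPM (−1.4, SE 0.15), although 4 near-identical genes cover 94.2% of its transcript and its reads are therefore uncertain. Ankrd37, a small ankyrin-repeat protein, was at 1.7, 1.59 and 1.91 CPM with rhWnt3a and 0.302, 0.402 and 0.291 with OSMI (−2.36, SE 0.37, adjusted p = 0.00826), with 26.4% of its exon bases shared with opposite-strand genes. Members without a call included Vegfa at −0.21 and the glucose transporter Slc2a1 at 0.03. The prolyl hydroxylases P4ha1 and P4ha2, described above, belong to this list too. Without rhWnt3a replicates 1, 2 or 3 the 8 calls became 6, 5 and 4, and without OSMI replicates 1 or 2 they became 5 and 4.

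HIF binds the core ACGTG, and promoters of the list, in which 8 of 21 members fell, were searched for it. Since the list is made of HIF targets, a high share of the core in it follows in part from that choice. In the 250 bases before the start, taken from RefSeq for GRCm38.p6, ACGTG or its reverse complement CACGT was present in 11 of 18 list members with a sequence (61.1%), in 6 of the 8 called falls and in 21.8% of the 9834 tested genes with a promoter sequence. Among all 302 called falls with a sequence the share was 18.9%. The promoters of 2 members with calls that held in every omission are shown, 5′ to 3′ on the strand of the gene, with the core in capitals. They are Ankrd37 (chr8:45999851-46000100, minus strand), with ACGTG 241 and 6 bases before the start, and Bnip3 (chr7:138909507-138909756, minus strand), where CACGT and ACGTG overlap as one palindrome. A match is a description of letters, and no binding was measured.
Ankrd37: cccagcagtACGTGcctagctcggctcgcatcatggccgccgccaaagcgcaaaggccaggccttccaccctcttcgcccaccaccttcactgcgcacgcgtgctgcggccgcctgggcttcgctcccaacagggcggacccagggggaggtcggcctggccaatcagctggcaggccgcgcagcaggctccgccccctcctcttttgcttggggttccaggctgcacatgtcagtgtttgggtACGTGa
Bnip3: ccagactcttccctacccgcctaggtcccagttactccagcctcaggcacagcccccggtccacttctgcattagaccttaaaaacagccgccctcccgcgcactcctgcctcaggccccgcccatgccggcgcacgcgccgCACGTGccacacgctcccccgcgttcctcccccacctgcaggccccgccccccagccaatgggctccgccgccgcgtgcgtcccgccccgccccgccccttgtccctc

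Mitosis genes gave the largest group of rises among the lists. All 36 tested members of the list had a positive log2 fold change, 18 were called higher (50.0%, against 1.69% of all tested genes), 0 were called lower, and the median was 1.5. The median level of the list, set to 0 for the mean of the rhWnt3a libraries, was 1.52, 1.45 and 0.48 (log2) in OSMI replicates 1 to 3 and 0.90 to 1.15 in the vehicle libraries. Each OSMI and each vehicle library was above each rhWnt3a library, whose highest value was 0.05. OSMI replicate 3 was the lowest of its group, and without it 30 members were called. Without rhWnt3a replicates 1, 2 or 3 the count was 8, 6 and 5, without OSMI replicates 1 or 2 it was 6 each, and without vehicle replicates 1, 2 or 3 it was 11, 11 and 17. With both libraries apart left out, 29 were called and the median was 1.69.

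Kif11, the motor that separates spindle poles, was at 3.29, 2.79 and 3.77 CPM with rhWnt3a and 12.1, 10.3 and 6.59 with OSMI, against 6.96–9.53 with vehicle (1.56, SE 0.25, adjusted p = 0.00992). Anln, a scaffold of the cleavage furrow, was at 8.82, 7.85 and 9.87 CPM with rhWnt3a and 31.9, 31.9 and 19.5 with OSMI (1.65, SE 0.22, adjusted p = 0.00452), with vehicle at 18.4–26. For both genes the OSMI and vehicle ranges overlapped and the rhWnt3a libraries lay below. Bub1b, a kinase of the spindle checkpoint, was at 1.03, 1.02 and 1.2 CPM with rhWnt3a and 5.8, 5.68 and 2.45 with OSMI (2.09, SE 0.35). Espl1, outside the list, encodes separase, the protease that releases sister chromatids, and rose from 0.778–0.973 to 2.62–4.53 CPM (2.03, SE 0.29). Prr11, a cell-cycle gene also outside it, rose from 0.852–1.02 to 2.8–4.66 (2.08, SE 0.32). Nek2, a centrosome kinase with the largest rise, was at 0.791, 1.02 and 0.957 CPM with rhWnt3a and 6.05, 5.45 and 2.21 with OSMI (2.3, SE 0.38), and its call was lost only without rhWnt3a replicate 3, at adjusted p = 0.052.

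The proliferation marker Mki67, which coats mitotic chromosomes, was at 4.38, 2.33 and 6.16 CPM with rhWnt3a and 22.3, 21.4 and 16.1 with OSMI (2.22, SE 0.42, call held in 5 of 9 omissions, up to 0.061). Cenpf, a kinetochore protein, was at 2.31, 1.71 and 2.03 CPM with rhWnt3a and 11.2, 9.24 and 5.83 with OSMI (2.11, SE 0.36, 8 of 9, up to 0.0575). Neither gene showed overlap between the 2 groups. Hmmr, a spindle protein, rose by a log2 fold change of 2.09 (5 of 9, up to 0.0748), and Cep55, which acts in the last step of cell division, by 2.12 (1 of 9, up to 0.14). Outside the list, the microtubule motor Kif18b rose by 2.04 (5 of 9, up to 0.0707) and the kinetochore scaffold Knl1 by 1.9 (4 of 9, up to 0.108). Foxm1, a transcription factor of mitotic genes, rose by 0.94 (2 of 9, up to 0.113, named after its value was seen), and Mybl2, which acts with it, was at 0.39 without a call.

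Promoters of mitosis genes often hold a CCAAT box followed by a CHR element, so the promoters of the list were searched for these letters. CCAAT or ATTGG was present in 74.2% of the 31 tested list members with a sequence, in 62.5% of the 16 called ones and in 37.4% of all tested genes. A CHR, taken as TTTGAA on either strand (TTCAAA on the other) or as the palindrome TTTAAA, was present in 48.4%, 43.8% and 17.9% in that order. Both together, whichever came first, were present in 41.9%, 31.2% and 6.94%. The same combination was present in 9.78% of the 184 called rises with a sequence and in 6.62% of the called falls. In the DNA replication list, CCAAT was in 64.5% and a CHR in 16.1% of 31 promoters. The promoters of 4 risers are shown, 250 bases before the start from RefSeq (GRCm38.p6), 5′ to 3′ on the strand of the gene, with CCAAT boxes and CHR letters in capitals. Mki67 (chr7:135716380-135716629, minus strand) holds 3 CCAAT boxes and 2 CHRs, Cenpf (chr1:189688087-189688336, minus strand) 2 CCAAT boxes and a TTTAAA, and Nek2 (chr1:191821223-191821472, plus strand) and Bub1b (chr2:118597961-118598210, plus strand) 1 CCAAT box each. In Cenpf the TTTAAA lies before the CCAAT boxes, not after them.
Mki67: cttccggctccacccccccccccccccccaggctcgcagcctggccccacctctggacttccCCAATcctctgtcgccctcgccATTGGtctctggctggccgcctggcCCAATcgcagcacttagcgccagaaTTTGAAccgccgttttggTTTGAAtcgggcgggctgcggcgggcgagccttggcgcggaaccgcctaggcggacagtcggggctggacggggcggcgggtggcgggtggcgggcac
Cenpf: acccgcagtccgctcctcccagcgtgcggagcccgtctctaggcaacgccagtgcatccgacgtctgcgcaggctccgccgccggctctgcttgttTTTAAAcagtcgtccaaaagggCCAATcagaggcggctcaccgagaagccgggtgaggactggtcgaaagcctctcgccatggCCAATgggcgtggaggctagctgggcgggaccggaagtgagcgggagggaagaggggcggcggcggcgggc
Nek2: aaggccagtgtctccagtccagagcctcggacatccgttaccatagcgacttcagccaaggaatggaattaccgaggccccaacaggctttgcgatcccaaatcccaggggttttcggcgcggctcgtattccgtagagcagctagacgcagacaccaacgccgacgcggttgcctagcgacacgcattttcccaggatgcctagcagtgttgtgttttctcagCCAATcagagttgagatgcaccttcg
Bub1b: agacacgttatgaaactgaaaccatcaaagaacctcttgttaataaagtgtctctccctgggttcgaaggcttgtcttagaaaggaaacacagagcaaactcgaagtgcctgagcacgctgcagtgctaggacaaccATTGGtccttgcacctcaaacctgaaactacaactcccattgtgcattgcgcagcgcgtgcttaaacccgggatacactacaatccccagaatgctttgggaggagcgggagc

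A few DNA replication genes were called lower. Of 39 tested members 4 fell (10.3%, against 3.05% of all tested genes) and 0 rose, which is near the 1.69% of all tested genes. The median was −0.34, or −0.21 without the 2 libraries apart. Dut, which clears dUTP from the nucleotide pool, was at 36.8, 43 and 33.6 CPM with rhWnt3a and 15.8, 15 and 13.9 with OSMI (−1.34, SE 0.21, adjusted p = 0.00888). Chaf1b, a chaperone that places histones on new DNA, was at 6.81, 7.28 and 8.26 CPM with rhWnt3a and 3.45, 2.93 and 2.45 with OSMI (−1.34, SE 0.21, adjusted p = 0.00825). Both were separate from rhWnt3a in all 3 libraries. Subunits of the replicative helicase fell as well, Mcm4 from 27.4–29.5 to 17.2–19.3 CPM (−0.68, 6 of 9 omissions, up to 0.0749) and Mcm2 from 54.3–62.8 to 36.8–41.1 (−0.62, 2 of 9, up to 0.134). Of 15 G1 cyclins and CDK inhibitors, only Ccnd3, a D-type cyclin, was called (−0.54, 2 of 9, up to 0.117), and 0 of 18 p53 targets were.

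**Figure D4:**
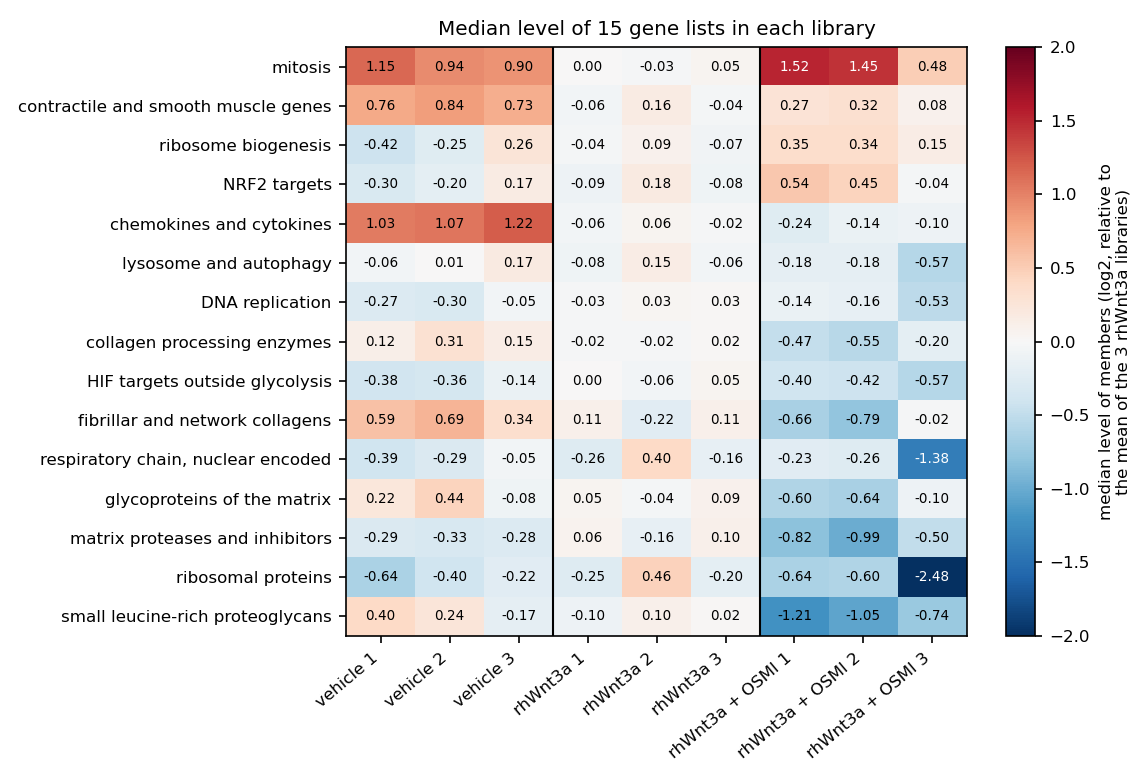
Median level of the members of 15 gene lists (rows) in each of the 9 libraries (columns), as the log2 difference from the mean of the 3 rhWnt3a libraries, with higher levels in red and lower in blue. Mitosis is at 1.52, 1.45 and 0.48 in the OSMI libraries, and OSMI replicate 3 departs most from its partners in ribosomal proteins (−2.48 against −0.64 and −0.60) and the respiratory chain (−1.38 against −0.23 and −0.26).

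Genes of the NRF2 response, which detoxify electrophiles and make glutathione, gave 7 rises among 26 tested (26.9%, against 1.69% of all tested genes) and 0 falls. The median was 0.25, or 0.52 with 10 called when the 2 libraries apart were left out. Gclm and Gclc, the 2 subunits of the enzyme that limits glutathione synthesis, were both higher. Gclm was at 90.0, 91.8 and 97.9 CPM with rhWnt3a and 226, 233 and 181 with OSMI (1.19, SE 0.17, adjusted p = 0.00582), and Gclc at 128, 125 and 129 CPM with rhWnt3a and 238, 244 and 208 with OSMI (0.86, SE 0.14, 8 of 9 omissions, up to 0.0558). The OSMI libraries were above every rhWnt3a and vehicle library for both. Osgin1, an oxidative stress response gene, rose from 9.57–11.8 to 20.6–22.4 CPM (1.03, SE 0.16), and the glutathione transferase Gstm1 from 37.7–47.2 to 69.7–86.6 (0.92, SE 0.13), with vehicle at 76.7–81. One near-identical gene covers 51.0% of the Gstm1 transcript. Hmox1, a heme-degrading enzyme, was at 475, 575 and 481 CPM with rhWnt3a and 1696, 1757 and 841 with OSMI (1.49, SE 0.29, adjusted p = 0.0212), with OSMI replicate 3 the lowest of its group and above every rhWnt3a library (5 of 9, up to 0.0922). Hmox1, the exporter Abcc1 (1.22) and the sulfiredoxin Srxn1 (0.94, 4 of 9, up to 0.0922) were named after their values were seen. Nfe2l2, which encodes NRF2, was at −0.05 without a call. The count of 7 became 4 without rhWnt3a replicate 3 and ranged from 5 to 9 for the other omissions.

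Enzymes of retinoid metabolism changed in both directions. Rdh10, which oxidizes retinol, was at 95.7, 111 and 99.9 CPM with rhWnt3a, 41, 38 and 47.7 with OSMI and 22–23.4 with vehicle (−1.28, SE 0.13, adjusted p = 0.00149). Dhrs3, which reduces retinal back to retinol, fell from 46.4–51.1 to 22.8–24.6 CPM (−1.07, SE 0.12, adjusted p = 0.00208). Aldh1a1, which makes retinoic acid, rose from 112–133 to 215–233 CPM (0.89, SE 0.12, adjusted p = 0.00497). Of 12 tested members of the list 1 rose (8.33%) and 3 fell (25%), against 1.69% and 3.05% of all tested genes.

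In Wnt signaling itself, 2 of 17 canonical targets fell (11.8%, against 3.05% of all tested genes) and 0 rose, with a median of −0.35. The falls became 5 without OSMI replicate 3, or without both libraries apart, and 1 without rhWnt3a replicates 1 or 3, OSMI replicates 1 or 2 or vehicle replicates 1 or 2, and the correction for length and GC content gave 3 rises and 3 falls with a median of −0.15. Tnfrsf19 had a log2 fold change of −2.32, SE 0.33 (adjusted p = 0.00582), and Wisp1, a matricellular protein, fell from 73.7–98.1 to 48.3–61.8 CPM (−0.7, 3 of 9 omissions, up to 0.13). Among 20 receptors and antagonists, 1 rose (5%) and 2 fell (10%), against 1.69% and 3.05% of all tested genes. The receptor Fzd5 rose from 17.2–29 to 42.1–57 CPM (1.01, 5 of 9, up to 0.0704) while Fzd2 fell from 217–242 to 94.3–149 (−0.92, 4 of 9, up to 0.102). Sostdc1, a secreted antagonist of BMP and Wnt ligands, had 17, 14 and 19 counts with rhWnt3a and 1, 1 and 3 with OSMI, a ratio of 10.1 (95% counting interval 4.04 to 32.4).

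Other signaling pathways had a few called members each, where 1.69% of all tested genes rose and 3.05% fell. Without the 2 libraries apart the falls in the BMP list, of which there were 2 among 20, became 5, the median of the Notch list went from −0.25 to −0.81, and the rises in the list of FGF and ERK feedback genes, of which there were 3 among 23, became 1. In the TGF-β list 5 of 20 fell (25%) and 1 rose (5%). The feedback genes Pmepa1 (from 207–220.4 to 62.2–131 CPM, −1.32) and Skil (−0.6) and the activin subunit Inhbb (−1.18) were among the falls, with calls that held in 4, 2 and 4 of the 9 omissions and reached adjusted p of 0.0954, 0.14 and 0.0835. The other falls were the ligand Tgfb3 (−0.99, 2 of 9, up to 0.134) and the matrix protein Tgfbi (4 of 9, up to 0.113), both named after their values were seen. Tgfbi had few reads even with rhWnt3a, at 0.398–0.426 CPM, where 3 counts correspond to 0.17 to 0.191 CPM. It was at 0 in OSMI replicates 1 and 2. Omitting any single rhWnt3a or OSMI library other than OSMI replicate 3 left 0 called falls in this list. Igf1, a growth factor of bone, fell from 175–197 to 30.8–78.3 CPM (−1.86, SE 0.34, 5 of 9, up to 0.0856), and Igfbp4, which binds it, from 884–1143 to 382–547 (−1.13, 3 of 9, up to 0.145). Igf2bp2, an RNA-binding protein, rose from 87.7–115 to 172–188 CPM (0.77, SE 0.13). In the BMP list, the receptor Bmpr1b (−2.1, 5 of 9, up to 0.0885) and the secreted follistatin-like protein Fstl1 (−0.79, 2 of 9, up to 0.134) fell. In the Notch list, the target Hes1 (−2.24, 5 of 9, up to 0.0856) and the glycosyltransferase Lfng (−0.92, 2 of 9, up to 0.118) fell. Targets of ERK signaling rose in part, namely Fosl1 (1.25), Egr1 (0.84) and Etv5 (0.8), with calls that held in 3, 3 and 5 of the 9 omissions and reached adjusted p of 0.122, 0.0993 and 0.107, whereas Fgf21, a stress hormone, fell (−1.3, 3 of 9, up to 0.104). For Fosl1, an opposite-strand gene shares 57.2% of the exon bases, and near-identical sequence covers 42.8% of the Etv5 transcript.

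Contractile and smooth muscle genes were called in both directions. Of 22 tested genes 4 rose and 2 fell (18.2% and 9.09%, against 1.69% and 3.05% of all tested genes), and the correction for length and GC content gave 9 rises and 2 falls. Srf, the transcription factor of contractile genes, was at 63.7, 58 and 69.6 CPM with rhWnt3a and 129, 107 and 139 with OSMI (0.97, SE 0.14, adjusted p = 0.0053). Lmod1, an actin nucleator of smooth muscle, was at 3.16, 3.98 and 3.65 CPM with rhWnt3a and 10.5, 9.53 and 13.5 with OSMI (1.63, SE 0.20, adjusted p = 0.00276), with vehicle at 15.9–21.3. For Lmod1 OSMI lay between rhWnt3a and vehicle without overlap. The focal adhesion proteins Vcl (1.2, 2 of 9, up to 0.0875) and Actn1 (0.8, 1 of 9, up to 0.13) rose, both named after their values were seen, and the filament proteins Des and Vim (−0.73, 2 of 9 omissions, up to 0.112) fell. Among 16 integrins, integrin α8 (Itga8), a receptor for nephronectin, rose from 13.6–17.9 to 40.5–61.1 CPM (1.65, SE 0.22, adjusted p = 0.00452), and integrin α9 (Itga9) fell (−2.25, 8 of 9, up to 0.0673). Among 20 YAP and TEAD targets the receptor tyrosine kinase Axl rose (0.8, 2 of 9, up to 0.102), Nt5e, the ectoenzyme CD73 used as a stromal marker, fell from 4.38–4.67 to 0.803–1.28 CPM (−2.18, SE 0.25), and Ankrd1 fell (−1.84, 2 of 9, up to 0.103).

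Of 36 tested genes of axon guidance 3 fell (8.33%, against 3.05% of all tested genes) and 1 rose (2.78%, against 1.69%). Without the 2 libraries apart 6 were called lower and 0 higher, and the rise was lost without any one of the 6 rhWnt3a and OSMI libraries. Sema3a, a secreted semaphorin that also acts on bone cells, was at 123, 111 and 125 CPM with rhWnt3a and 54.2, 54.2 and 68.7 with OSMI (−1.02, SE 0.13, adjusted p = 0.0038). Efnb2, a membrane ligand of Eph receptors, was at 20.9, 18.3 and 23 CPM with rhWnt3a and 8.34, 6.89 and 9.38 with OSMI (−1.34, SE 0.17, adjusted p = 0.00304), and vehicle at 7.9–9.27 overlapped OSMI. Sema3b fell (−2.33, 7 of 9 omissions, up to 0.0562), and the receptor Epha2 rose (0.6, 1 of 9, up to 0.123).

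Chemokines, cytokines and their partners in immune signaling gave 2 rises and 6 falls among 27 tested (7.41% and 22.2%, against 1.69% and 3.05% of all tested genes). Csf1, the growth factor of macrophages and osteoclast precursors, was at 671, 553 and 665 CPM with rhWnt3a and 1639, 1439.8 and 1706 with OSMI, against 527–852 with vehicle (1.34, SE 0.20, adjusted p = 0.00596). All 3 OSMI libraries exceeded every other library. Cx3cl1, a membrane-bound chemokine, was at 40.3, 34.1 and 37.2 CPM with rhWnt3a and 76.2, 74.8 and 86 with OSMI (1.09, SE 0.12, adjusted p = 0.00208), below vehicle at 94.3–107. Il1rl1, the receptor of interleukin 33, fell from 20.1–25.2 to 4.02–6.0 CPM (−2.21, SE 0.18, adjusted p = 0.000677), and its ligand Il33 from 2.33–3.53 to 0.302–0.803 (−2.59, SE 0.45, 7 of 9, up to 0.0649, named after its value was seen). Vcam1, an adhesion receptor for leukocytes, fell from 57.7–62.5 to 27.1–36.4 CPM (−0.96, 8 of 9 omissions, up to 0.0525). The chemokine Ccl9 (−1.7), the cytokine Lif (−0.93, 3 of 9, up to 0.12) and the vessel growth factor Angpt1 (−1.22, 6 of 9, up to 0.0757) were the other falls, also named after their values were seen.

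Of 40 interferon-response genes 1 rose (2.5%) and 1, the MHC gene H2-T23 (−0.81, 2 of 9, up to 0.14), fell (2.5%). These shares are near the 1.69% and 3.05% of all tested genes. The median of the list, 0.30, became 0.00 without the 2 libraries apart. Ifit3, an antiviral protein, was at 13.9, 17.8 and 24.2 CPM with rhWnt3a, 45.7, 50.9 and 78.5 with OSMI and 229.8–333 with vehicle (1.65, SE 0.26). A near-identical gene covers 97.4% of its transcript, so its reads are uncertain. Complement C3, a secreted defense protein, rose from 509–893 to 1549.6–2248 CPM (1.26, SE 0.26, adjusted p = 0.0255), with rhWnt3a replicate 2 the lowest. The C3 call held in 4 of 9 omissions, up to 0.0696, and its log2 fold change was 0.86 without the 2 libraries apart. In the same list of 12, C1qtnf6 (−0.99) and C1qtnf1 (−1.19, 2 of 9, up to 0.155), secreted relatives of complement C1q, fell.

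Ribosomal protein genes were lower throughout without passing the test. All 43 had a negative log2 fold change, from −1.63 to −0.76 with a median of −1.06, and in 42 the OSMI libraries lay below all rhWnt3a libraries (against 17.0% of tested genes). By edgeR 0 were called at an adjusted p under 0.05, 36 passed at an unadjusted p under 0.05, and DESeq2 called 15. Rpl3, a core protein of the large subunit, was at 955, 1375 and 947 CPM with rhWnt3a and 653, 611 and 306 with OSMI (−1.06, SE 0.29, adjusted p = 0.0678), although 7 near-identical genes cover 64.7% of its transcript. The median level of the list was −0.64, −0.60 and −2.48 (log2, against the rhWnt3a mean) in OSMI replicates 1 to 3 and 0.46 in rhWnt3a replicate 2, the 2 libraries apart being the extremes. Without them the median fold change was −0.38 and 5 genes were called. Nuclear genes of the respiratory chain also lay below 0, with 35 of 35 negative, 0 called by edgeR (8 at an unadjusted p under 0.05, 1 by DESeq2), and a median of −0.55 that became −0.05 without the 2 libraries. Among genes of ribosome assembly 4 of 26 rose (15.4%, against 1.69% of all tested genes) and 0 fell, with a median of 0.31. The called members were the nucleolar proteins Rrp12 (0.81), Heatr1 (0.72), Mybbp1a (0.68) and Nolc1 (0.64), in each of which the OSMI and rhWnt3a groups were separate, each call held in 1 or 2 of the 9 omissions, and 1 member was called without the 2 libraries apart.

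Fold changes varied with gene length. Over 5 groups of tested genes of near-equal size, ordered by length, the median log2 fold change went from −0.31 in the shortest (57 to 2007 bases) through −0.14, −0.03 and 0.07 to 0.19 in the longest (from 7181 bases). Without rhWnt3a replicate 2 and OSMI replicate 3 the 5 medians lay between −0.04 and 0.03. The median length was 1830 bases for ribosomal proteins, 1972 for the nuclear respiratory chain and 4748 for mitosis genes. A correction for length and GC content, with a value for 99.9% of genes, gave 1082 called genes, 461 higher and 621 lower, and list medians of −0.88 for ribosomal proteins, −0.43 for the respiratory chain and 1.5 for mitosis. The part of gene length in the ribosomal and respiratory shifts was not tested.

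**Figure D5:**
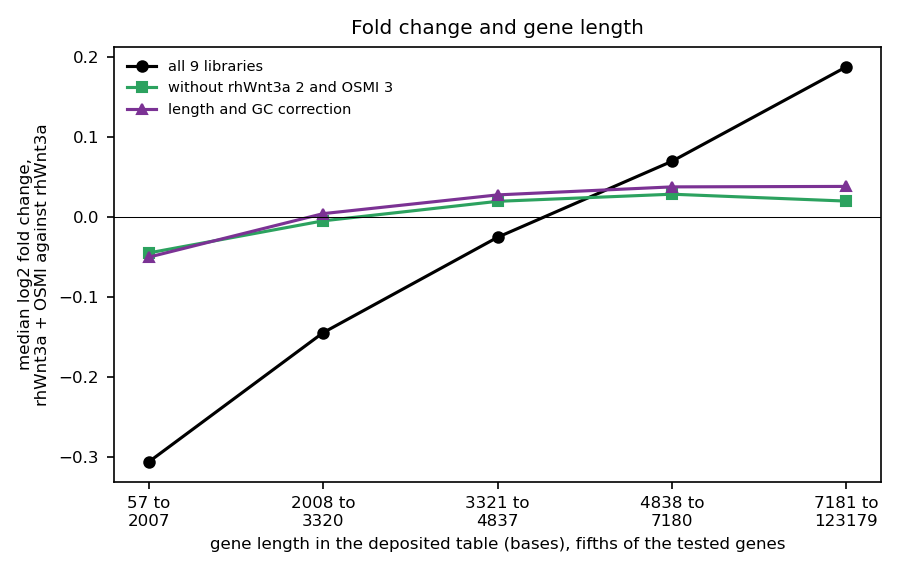
Median log2 fold change of rhWnt3a with OSMI over rhWnt3a (y axis) in 5 groups of tested genes ordered by gene length (x axis, bases), with all 9 libraries (black), without rhWnt3a replicate 2 and OSMI replicate 3 (green), and after a correction for length and GC content (purple). The black line climbs from −0.31 to 0.19 and the other 2 stay between −0.05 and 0.04. The correction removes a trend with length in each library, so the flat purple line follows from the correction itself.

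Lysosome and autophagy genes gave 4 falls among 39 (10.3%) and 0 rises, against 3.05% and 1.69% of all tested genes, with 1 fall without the 2 libraries apart. Lists of this paragraph with 1 called member had 3.7% to 8.33% of their tested genes called. Ctsh, a lysosomal protease, was at 25.5, 34.2 and 28.5 CPM with rhWnt3a and 13, 17.2 and 12.5 with OSMI (−1.05, SE 0.17, adjusted p = 0.00926), while the glycosidases Gla (−0.68) and Gusb (−0.54) fell with calls that held in 1 and 1 of the 9 omissions and reached adjusted p of 0.144 and 0.134. Pparg, the regulator of fat-cell formation, was the called member of 12 fat-cell genes, from 6.82–7.67 CPM with rhWnt3a to 10.6–12 with OSMI (0.63, 3 of 9, up to 0.144), against 21.7–26.9 with vehicle. Among 17 annexins and S100 proteins, Anxa8 and S100b, described above, were the 2 called falls, and Fgf21 was the called member of 27 ATF4 targets, whose median was 0.01. Of 13 chromatin partners of OGT and HCF1 1 was called, the histone methyltransferase Kmt5a, which rose (0.55, 1 of 9, up to 0.157, named after its value was seen). Atf6, a sensor of endoplasmic reticulum stress, was the called member of 24 genes of the unfolded protein response (0.89, 6 of 9, up to 0.0817).

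Several groups had no called member. Because 4.74% of all tested genes were called, 0 calls in a short list do not set it apart from other genes. Of 17 osteoblast, 19 cartilage and 20 histone genes listed, 10, 12 and 9 were tested. Among the 10 tested osteoblast genes the median was 0.11, or 0.10 with 1 member, Col1a1, called lower without the 2 libraries apart. Spp1, the bone matrix protein osteopontin, was at 1274, 1817 and 1323 CPM with rhWnt3a and 837, 929 and 551 with OSMI (−0.93, SE 0.26, adjusted p = 0.0691), and Runx2, the transcription factor of the lineage, at 45.4–63.5 and 66.6–95.8 CPM in that order (0.44, SE 0.19, adjusted p = 0.203). Cartilage genes (12 tested, median −0.19), the tricarboxylic acid cycle (22, −0.27), the pentose phosphate and serine pathways (15, −0.04), mitochondrially encoded genes (12, 0.01), cholesterol synthesis (25, −0.04), fatty acid synthesis (18, 0.06), heat shock proteins (18, 0.02), splicing factors (31, −0.06) and histones (9, 0.31) had 0 calls each by edgeR at an adjusted p under 0.05. Without the 2 libraries apart the median was 0.01 for the tricarboxylic acid cycle, −0.58 for cartilage genes and 0.58 for histones, and 1 member each of the pentose phosphate and serine pathways, cholesterol synthesis and histones was called higher. At an unadjusted p these lists held 0 to 4 calls each, and by DESeq2 0 to 2. Over all tested genes, 2271 passed an unadjusted p under 0.05 with the same fold threshold, and DESeq2 called 1297.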

How the data were processed

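Poly-T selected messenger RNA of ST2 cells was sequenced from 9 libraries by a service company for the authors. The submitters' processing notes name CASAVA, fastp, HISAT2 2.0.5, featureCounts 1.5.0-p3 and the build mm10. The strand setting and annotation are not given in the sources used here. The authors deposited raw read counts per gene, which were used as they stand. FPKM values and the authors' own fold changes and p-values in the same table were not used. Of the 14004 tested genes 13993 occur in GENCODE M21 (GRCm38), 13459 with the same start and end.

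Counts were fitted in R 4.3.3 with edgeR 4.0.16: filterByExpr (minimum count 10, minimum total 15), TMM scaling, glmQLFit on the 3 groups with all 9 libraries and no covariate, and a two-sided glmQLFTest of rhWnt3a with OSMI minus rhWnt3a, with Benjamini-Hochberg adjustment over all tested genes. The common dispersion was 0.0452, an estimate that all genes share. The fold threshold of 0.5 (log2) is that of the study's methods. CPM use TMM-scaled totals. Median list levels used log2(CPM + 0.5). DESeq2 1.42.0, other filters, left-out libraries, a replicate block and a length and GC correction were alternatives, and the scripts were tested on simulated data.

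Members and gene lists were chosen with earlier results of these data known. Counting intervals cover counting error only, and 3 counts set the floor. Named genes are the 15 largest rises and falls among called genes averaging over 1 on the log2 CPM scale with non-overlapping groups, up to 4 called members with the smallest p in each list, up to 3 members of a list without a call, the 5 called genes with the most counts, and Ogt, Oga, Gfpt1 and Gfpt2. Oga is listed in the table as Mgea5, and where a symbol belongs to several genes the one with more counts was taken. Some genes that this rule names are not reported here. Near-identical genes (97% identity over 100 bases) were sought with BLAST 2.17.0 in GENCODE M21 transcripts. Promoters are those of RefSeq (GRCm38.p6), the first listed start of each gene.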

Additional observations from a re-analysis of the deposited data

How the results depend on the processing

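Of the 14004 genes tested, 664 were called (237 higher, 427 lower). The values that moved by over 1.5 times were 1481 (490 higher, 991 lower) without a count filter, 1297 (458, 839) with DESeq2's Wald test, 345 (125, 220) with the 6 libraries alone, 1082 (461, 621) with a length and GC correction, 2271 (774, 1497) with unadjusted p, and 380 (101, 279) beyond a log2 fold change of 1. Leaving out 1 library gave 203 to 764 genes in all, 58 to 293 higher and 132 to 471 lower. OSMI replicate 2 gave the fewest and vehicle replicate 3 the most, and each rhWnt3a library, OSMI replicates 1 and 2 and vehicle replicate 2 moved the count by over 1.5 times. With both libraries apart left out, 692 were called (205, 487), of which 423 were among the 664. In these settings 0 called genes changed direction. Leaving out the libraries apart and the length and GC correction were chosen after seeing the data. Why the counts move was not tested.

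With the replicate number as a replicate block 233 genes were called (62 higher, 171 lower). Deviations of same-numbered rhWnt3a and OSMI libraries from their group means correlated at −0.315, 0.367 and 0.33. The labels do not say whether same-numbered libraries were prepared together, and correlations of mixed sign cannot settle it. The block lowered the count, and why it did so was not tested. Of the 130 called genes chosen for naming, 75 kept their call under the block and 62 to 130 under the other alternatives. No called gene and no count over all genes turned direction under any alternative. Within short lists the balance of calls could turn, as for the TGF-β list (5 falls and 1 rise, and 0 and 1 without any one of the rhWnt3a libraries or OSMI replicates 1 or 2), and list medians near 0 could change sign, as for interferon genes (0.30, and −0.09 without OSMI replicate 3). Depth limits genes near 3 counts, for which ratios carry wide counting intervals.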

Other observations

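Circadian clock genes, a group chosen after the rise of Nr1d1 was seen, were measured by 17 tested members of 18. Of these 4 rose (23.5%, against 1.69% of all tested genes) and 0 fell, with a median log2 fold change of 0.36. Nr1d1 itself is 1 of the 4, so the choice of the group raised this share. Nr1d2, the partner repressor of Nr1d1, was at 91.9, 97.8 and 88.3 CPM with rhWnt3a and 199, 205 and 146 with OSMI (0.99, SE 0.17, edgeR adjusted p = 0.0126, call held in 6 of 9 omissions, up to 0.0693). Dbp, an output transcription factor of the clock, went from 17.5–23.6 to 30.7–38.7 CPM (0.75, SE 0.15, 4 of 9, up to 0.103), and its relative Tef from 83.7–96.5 to 124–138 (0.53, SE 0.12, 1 of 9, up to 0.138). The activators of the clock were not called, with Arntl at −0.02 and Clock at 0.32, and neither were Per1 (0.39), Per2 (0.35), Cry1 (0.01) or Cry2 (0.36). Without rhWnt3a replicate 2 and OSMI replicate 3 the median was 0.07, with 3 members called higher and 2 lower.

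Below the level used for naming, Npffr1 and Mmp12 were singled out after their values were seen. Npffr1, a neuropeptide receptor, was at 0 in all 3 rhWnt3a libraries, at 2.24, 1.55 and 2.33 CPM with OSMI and at 0.0637–0.244 with vehicle. Mmp12, the macrophage elastase, was at 1.58, 2.56 and 1.56 CPM with rhWnt3a and at 0 in OSMI replicates 1 and 3. Both were called by edgeR, but Npffr1 reached the count filter only through the OSMI libraries, where it was high. Since both were also picked by their values, their p-values are not given as support.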
